A study of Mus musculus with 6 samples.

Results

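The suppressors of cytokine signalling (SOCS family) are 8 genes, Socs1 to Socs7 and Cish, and were followed here through the light damaged mouse retina. They were chosen by name, with earlier results of these data known. Every probe set that GEO's platform annotation assigns to 1 of these genes and to no other was taken. This gave 24 of the 45101 probe sets on the array. All 8 were among the 18193 genes measured. Where a gene had several probe sets, its brightest on average stands for it, and the remaining ones are given beside it.

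The retinas came from BALBc mice, an albino strain, and RNA was read on 6 Affymetrix arrays. Every mouse spent 1 week in darkness. The 3 dark adapted arrays stand for mice that received no damaging light; the 3 light damaged arrays stand for mice that were then placed under white fluorescent light of 6000 lux for 6 h and sampled 24 h later. The labels do not say when the dark adapted retinas were collected. Neither the sex or age of the mice nor whether each array holds 1 animal is given in the sources used here, so the p-values speak only to the spread among these arrays, and that spread could be technical. The titles number the arrays 1 to 3 in both groups. Same-numbered arrays deviated together from their group means, so changes within the 3 same-numbered pairs are given as well.

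Cytokine receptors without kinase activity of their own use Janus kinases (JAKs), which phosphorylate STAT transcription factors. STATs then induce target genes, among them SOCS genes, whose proteins shut the receptor down again in a negative feedback loop. Every SOCS protein has an SH2 domain, which finds phosphorylated tyrosines, and a SOCS box, which recruits elongins and a cullin to mark bound proteins for degradation. SOCS1 and SOCS3 also hold a short region that blocks JAK activity directly. In the retina, Müller glia are known for STAT3 activation after injury.

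Socs3 rose strongly after light damage and no other SOCS gene passed the test. Socs3 went from 6.95 ± 0.23 to 9.30 ± 0.11 (log2 expression value with SD, n = 3 for each group), or 5.10-fold higher. Cish had a change of 0.53 on the log2 scale and Socs5 one of 0.43, and in both every light damaged value lay above every dark adapted value, but neither passed the test over all genes. In their chosen probe sets Socs1, Socs2, Socs4, Socs6 and Socs7 had changes between -0.15 and 0.28, and their groups overlapped. Other Socs2 probe sets gave larger changes, up to 0.63, and some had groups without overlap. Of the 8 genes 1 was therefore called higher, against 1.74% of all genes, and 0 lower, against 0.269% (2.01% of all genes in either direction). At an unadjusted p under 0.05 the counts were 3 and 0, against 8.58% of all genes higher and 2.42% lower. The median change was 0.26 over the 8 genes and 0.03 over all genes. With the replicate number as a block, limma called 2 of the 8 higher, Socs3 and Cish, and 0 lower, against 6.73% and 2.13% of all genes (8.87% in either direction). The groups did not overlap in 3 of the 8 genes, all higher, against 11.9% of all genes higher and 3.75% lower (15.6% in either direction). Calls are by limma at an adjusted p under 0.05 (Benjamini-Hochberg over all genes).

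**Figure D1:**
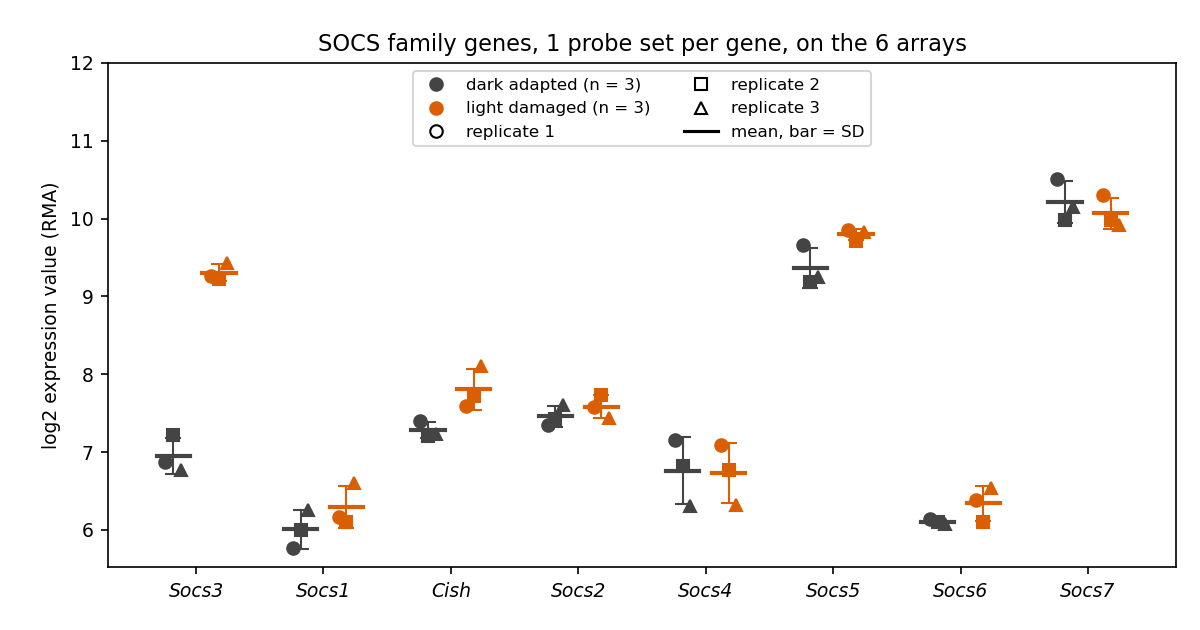
Log2 expression values of the 8 SOCS family genes on the 6 arrays (vertical axis), with dark adapted arrays in grey, light damaged arrays in orange, the replicate number as the marker shape, lines for means and bars for SD (n = 3 per group). Socs3 is the gene with the widest gap, from 6.78 to 7.21 in dark adapted and from 9.23 to 9.43 in light damaged retinas; levels of different genes come from different probe sets and are not comparable.

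Promoter windows from RefSeq (build GRCm38.p6) are shown for the members where a motif match bears on the induced or the classically inducible genes. A window of 250 bases before to 50 bases after a transcription start was given for 4 of the 8 members, Socs1, Socs3, Socs4 and Cish. Capitals mark, in Socs3 and Cish, the letters TTCNNNGAA, the core that STAT dimers read, which is its own reverse complement. In Socs1 they mark the repeat read by interferon regulatory factors (GAAA, then any 2 bases, then GAAA), searched on both strands. The Socs3 stretch (chr11:117969367-117969616, minus strand) is the 250 bases before the start, the Cish stretch (chr9:107296659-107296688, plus strand) is the first 30 bases after it, and the Socs1 stretch (chr16:10785537-10785636, minus strand) is the 100 bases before it.
Socs3: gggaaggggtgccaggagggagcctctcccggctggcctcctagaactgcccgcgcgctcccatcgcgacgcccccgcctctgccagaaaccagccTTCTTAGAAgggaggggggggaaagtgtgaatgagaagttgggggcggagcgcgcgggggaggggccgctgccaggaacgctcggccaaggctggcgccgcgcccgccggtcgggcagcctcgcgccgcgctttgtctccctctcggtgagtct
Cish: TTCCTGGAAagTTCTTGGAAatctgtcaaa
Socs1: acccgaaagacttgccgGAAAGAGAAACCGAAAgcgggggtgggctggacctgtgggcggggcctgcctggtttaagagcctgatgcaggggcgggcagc

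Socs3 held 1 STAT match, at -154 to -146 from the start, and Cish held 2, at 1 to 9 and at 12 to 20. Socs1 held 2 overlapping interferon regulatory factor matches, at -83 to -74 and -77 to -68, and no STAT match. The Socs4 window held neither motif, which says only that these letters are not in it. Among all 32851 windows of 300 bases, 8.3% held the STAT letters and 3.44% held the interferon regulatory factor repeat. The printed Socs3 stretch held 71.6% G and C over 250 bases, that of Socs1 65% over 100 and that of Cish 36.7% over 30. These stretches differ in length and position, and the 2 matches fill most of the Cish stretch. The shares are therefore not comparable. A match describes these letters and is not a measured binding site.

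Socs3 encodes the member that binds the shared interleukin 6 family receptor subunit gp130 and blocks its JAKs. Its chosen probe set (1416576_at) read 6.87, 7.21 and 6.78 on dark adapted arrays 1, 2 and 3 and 9.26, 9.23 and 9.43 on light damaged arrays 1, 2 and 3. All 3 light damaged values lay above all 3 dark adapted values and the gap between the groups was wider than the range within either. The log2 change was 2.35 ± 0.15 (SE; 95% interval 2.00 to 2.70; limma adjusted p = 0.000757). Ranked by the size of the change, Socs3 stood at place 20 among the 18193 genes. The same-numbered pairs gave changes of 2.38, 2.01 and 2.65. Socs3 passed the test under all 14 alternative settings, with changes between 1.94 and 2.86.

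The other 2 Socs3 probe sets, both of a kind whose probes can also match further transcripts (_x_at), rose as well. Probe set 1455899_x_at went from 4.81, 4.33 and 5.61 to 8.42, 8.85 and 8.75, a change of 3.75 ± 0.30 (SE; adjusted p = 0.0027 in the limma fit over all probe sets). Probe set 1456212_x_at went from 4.62, 4.89 and 5.28 to 7.88, 7.82 and 6.56, a change of 2.49 ± 0.36 (SE; adjusted p = 0.0221), with light damaged array 3 lower than the other two by over 1 log2 unit. It lost the call without dark adapted replicate 1 (adjusted p = 0.0523), dark adapted replicate 2 (0.105), light damaged replicate 1 (0.0838) or light damaged replicate 2 (0.0951). In both, dark adapted arrays 1 and 2 read below those arrays' lower quartile, so these changes start from dim signals. The arrays' order within a group also differed between probe sets: dark adapted array 2 was the highest of its group in 1416576_at and the lowest in 1455899_x_at.

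Marker lists of cell types were read on the same arrays, since in whole retina more or fewer cells of a type and more or less RNA per cell cannot be told apart. Over all genes 1.74% rose and 0.269% fell at the adjusted threshold. At an unadjusted p under 0.05 (limma), 8.58% of all genes were higher and 2.42% lower. Rod markers were bright, with Sag at 13.49 and Gnat1 at 13.45 in dark adapted and at 13.39 and 13.06 in light damaged retinas. Of 10 rod markers 1, Nrl, fell at the adjusted threshold and 8 were lower at an unadjusted p under 0.05, with a median change of -0.70. The rod list's summed level ran from 15.77 to 16.08 (log2) in dark adapted and from 15.25 to 15.58 in light damaged retinas. Of 7 astrocyte and reactive glia markers 4 rose (also 4 higher and 0 lower unadjusted, median 1.75, summed level 10.13 to 10.41 against 11.85 to 11.94). They were Gfap, Serpina3n, Lcn2 and Cd44, of which Lcn2 and Gfap are also known STAT3 targets. The brightest in that list, Aqp4, went from 8.89 to 8.69, and Cd44 from 7.06 to 9.66. Of 14 microglia and macrophage markers 4 rose (7 higher and 1 lower unadjusted; median 0.43; summed level 10.44 to 10.61 against 10.95 to 11.12). The 4 were Cd68, C1qc, Lyz2 and Cd14. The brightest here, Csf1r and Ctss, went from 8.59 to 8.34 and from 7.97 to 8.23. Müller glia markers differed in direction: of 10, 1 rose (Vim), and 4 were higher and 1 lower unadjusted, with a median of -0.11. The brightest, Glul (glutamine synthetase), went from 12.02 to 11.03 and Dkk3 from 11.22 to 11.20, and the summed level was 13.46 to 13.82 against 13.47 to 13.83. Of 11 T cell, B cell and granulocyte markers 0 passed in limma (1 higher and 0 lower unadjusted; the brightest were Cd3e and Cd8a), with Ptprc, Cd3g and S100a8 dim on all 6 arrays. None of the 8 retinal pigment epithelium (brightest Ttr and Pmel), 9 endothelium and pericyte (Kdr and Rgs5), 2 red blood cell (Alas2 and Hba-a1) and 6 lens markers (Crybb2 and Crygs) passed in limma. At an unadjusted p under 0.05, 1, 1, 0 and 0 of them were higher and 0 lower. Lens markers were bright, with Crybb2 at 12.87 and Crygs at 12.76 in dark adapted and at 12.68 and 12.49 in light damaged retinas. The lens list's mean level ran from 9.33 to 10.83 (log2) in dark adapted and from 9.04 to 10.77 in light damaged retinas. Ttr went from 8.31 to 9.30 and Pmel from 7.33 to 7.10. Lrat and Hba-a1 were dim on all 6 arrays. The part of the reactive glia, microglia and rod shifts in the rise of Socs3 was not tested.

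SOCS1, the closest relative of SOCS3 in mechanism, restrains interferon signalling above all. Its 1 probe set read 5.76, 6.00 and 6.25 in dark adapted and 6.17, 6.10 and 6.60 in light damaged retinas. The groups overlapped, and only light damaged array 3 stood above all dark adapted arrays. The Socs1 change was 0.28 ± 0.19 (SE; 95% interval -0.14 to 0.71; limma adjusted p = 0.713). Its upper bound lies below the lower bound of the Socs3 interval. With the replicate block the Socs1 interval was 0.03 to 0.53, with adjusted p = 0.165 over all genes.

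CIS, the product of Cish, was the first member described and acts on receptors that signal through STAT5. The Cish probe set read 7.40, 7.21 and 7.23 in dark adapted and 7.60, 7.72 and 8.10 in light damaged retinas. The groups did not overlap, and light damaged array 3 was the highest. The Cish change was 0.53 ± 0.16 (SE; 95% interval 0.16 to 0.90; limma adjusted p = 0.203), with pair changes of 0.20, 0.51 and 0.88. With the replicate block Cish passed the test over genes (adjusted p = 0.0443) but not that over probe sets (adjusted p = 0.0951). The change was 0.11 with each array centred on reference genes (adjusted p = 0.588).

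SOCS2 restrains growth hormone signalling, and mice without it grow too large. The chosen Socs2 probe set (1442586_at) read 7.35, 7.42 and 7.61 against 7.58, 7.73 and 7.44, with overlapping groups and a change of 0.12 ± 0.14 (SE; 95% interval -0.20 to 0.45; limma adjusted p = 0.885). The Socs2 probe sets differed in the size of their change. The 2 that the annotation ties to the RefSeq transcript of Socs2 showed larger changes. Probe set 1418507_s_at read 5.67, 5.12 and 5.46 against 6.24, 5.99 and 5.92, and its groups did not overlap. Its change was 0.63 ± 0.17 (SE; adjusted p = 0.221 in the limma fit over probe sets, and 0.0283 with the replicate block). Probe set 1449109_at read 7.001, 6.94 and 6.88 against 7.72, 7.43 and 7.05, again without overlap, and its change of 0.46 ± 0.18 (SE) did not pass (adjusted p = 0.484, and 0.105 with the replicate block). All 6 Socs2 probe sets had positive changes, from 0.12 to 0.63, and 2 of them, 1441476_at and 1446085_at, were dim (under the lower quartile on all 6 arrays).

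SOCS4 and SOCS5 are known for acting on the epidermal growth factor receptor. For Socs5, probe set 1423349_at read 9.66, 9.19 and 9.25 against 9.85, 9.71 and 9.83, without overlap. Its change was 0.43 ± 0.16 (SE; 95% interval 0.07 to 0.79; limma adjusted p = 0.323, and 0.0521 with the replicate block). The second Socs5 probe set, 1423350_at, had a change of 0.31 with overlapping groups: dark adapted array 1 read 7.19 beside light damaged values of 7.15, 7.03 and 7.15. Both Socs5 probe sets read highest on array 1 of the dark adapted group.

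Socs4 (1455142_at) read 7.16, 6.82 and 6.31 against 7.10, 6.77 and 6.33, a change of -0.03 ± 0.26 (SE; 95% interval -0.63 to 0.56). Here the arrays of 1 number gave nearly equal values in both groups, and the pair changes were -0.06, -0.05 and 0.01. With the replicate block the Socs4 interval narrowed to -0.26 to 0.20 (limma adjusted p = 0.9). The other 3 Socs4 probe sets had changes of -0.19, 0.07 and -0.07, of which the middle one belongs to 1421274_at, dim on all 6 arrays.

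SOCS6 and SOCS7 are less studied members that bind receptor tyrosine kinases or their adaptors. Socs6 (1450129_a_at) read 6.14, 6.10 and 6.08 against 6.39, 6.10 and 6.54. Light damaged arrays 1 and 3 stood above the dark adapted arrays and array 2 did not; the Socs6 change was 0.24 ± 0.15 (SE; 95% interval -0.10 to 0.57; limma adjusted p = 0.682). Its other probe sets had changes of -0.01 (1435492_at) and -0.12 (1452764_at). In the last the light damaged values (4.56 to 4.68) lay just below the dark adapted ones (4.69 to 4.77), all under the lower quartile of their arrays. Socs7 (1434834_at) read 10.51, 9.99 and 10.15 against 10.30, 9.98 and 9.92, a change of -0.15 ± 0.18 (SE; 95% interval -0.55 to 0.26; limma adjusted p = 0.894). The other Socs7 probe sets had changes from -0.04 to 0.04. Probe set 1455402_at read 10.56, 9.98 and 9.34 against 10.46, 9.88 and 9.65, so that within both groups array 1 was the highest and array 3 the lowest.

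Over all 24 probe sets, 3 were called higher, all of Socs3, against 0.913% of all probe sets (1.02% in either direction). With the replicate block 4 were called, the fourth being Socs2 1418507_s_at, against 3.48% (4.68% in either direction). The light damaged values lay wholly above the dark adapted values in 8 probe sets (3 of Socs3, 3 of Socs2, 1 of Socs5 and 1 of Cish), against 8.99% of all probe sets, and wholly below in 1, against 4.21% (13.2% in either direction). Of the 24 probe sets 4 lay below the lower quartile on all 6 arrays (1 of Socs4, 1 of Socs6 and 2 of Socs2), where RMA compresses differences, and 15 were never below it.

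**Figure D2:**
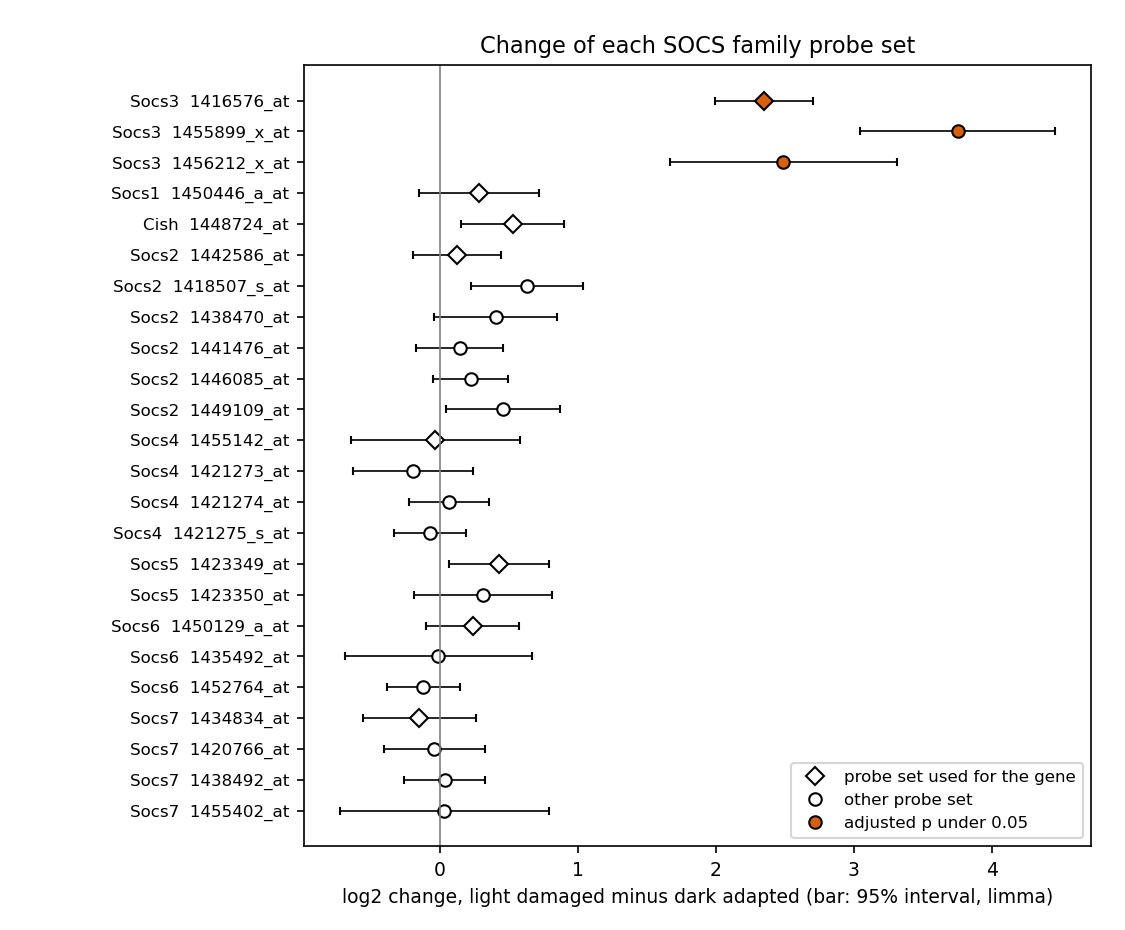
Log2 change (horizontal axis, light damaged minus dark adapted) of each of the 24 SOCS family probe sets with its 95% interval from limma; diamonds are the probe sets used for the genes, circles the others, and filled symbols passed an adjusted p of 0.05. The 3 Socs3 probe sets lie at 2.35, 3.75 and 2.49, and the other 21 between -0.19 and 0.63.

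The Socs3 change was then set against that of each relative on the same arrays. The difference between the changes was smallest against Cish (1.82 ± 0.19, SE) and largest against Socs7 (2.50 ± 0.30, SE). It was 1.92 against Socs5, 2.06 against Socs1, 2.11 against Socs6, 2.23 against Socs2 and 2.38 against Socs4. Against each of the 7 relatives, the array-wise difference was higher on every light damaged than on every dark adapted array. The exact two-sided permutation test gave p = 0.1 for each of the 7, the smallest that 3 arrays against 3 can give, and 0.1 after adjustment over the 7. Within same-numbered pairs the differences ranged from 1.49 to 2.88, all of 1 sign, with an exact sign-flip permutation p of 0.25, the smallest that 3 pairs allow. The 7 comparisons share the Socs3 values and are not independent, and the family was chosen with earlier results of these data known.

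**Figure D3:**
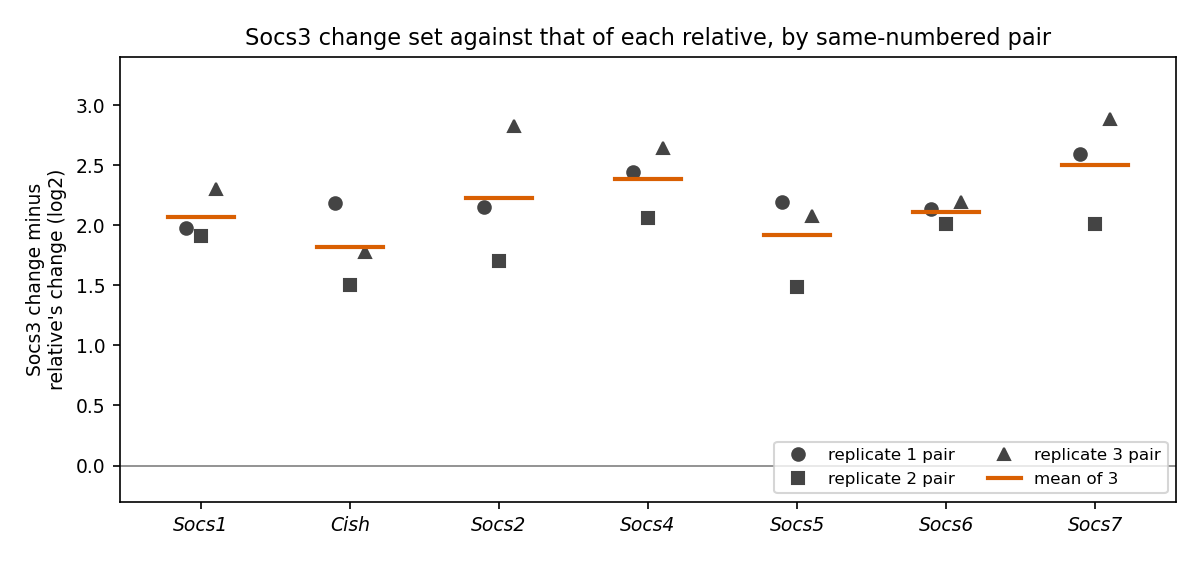
Socs3 change minus the change of each relative (vertical axis, log2) in the 3 same-numbered pairs of arrays, with the mean as a line. All 21 points lie between 1.49 and 2.88, above 0.

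The family's changes depend partly on scaling. The 5 reference genes found on the array (mean level 10.18 to 10.57 in dark adapted and 10.72 to 10.86 in light damaged retinas) had a higher mean level on every light damaged array, and 1 of them, Rplp0, passed the test. The changes of the 5 were uneven, 4 positive and 1 negative with a median of 0.23. The 2 brightest, Actb and Hprt, had changes of 0.70 and 0.04. With each array centred on the 5 reference genes every change dropped by 0.41 by construction, and the median of all genes went from 0.03 to -0.38. Positive changes smaller than that shift turned sign with it, among them Socs1 (-0.13), Socs2 (-0.29) and Socs6 (-0.18). The Socs3 change was then 1.94 and passed the test. The upper quartiles of the 6 arrays ran from 7.41 to 7.67, array 1 having the highest in both groups; its part in the array-wise order of Socs4, Socs5 and Socs7 was not tested.

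Upstream of the SOCS genes, a few ligand, receptor, JAK and STAT genes rose and none fell. Of 12 interleukin 6 family ligands and receptors 4 rose, 0 fell (also 0 at an unadjusted p under 0.05) and 8 did not pass. Over all genes 1.74% rose and 0.269% fell (2.42% lower unadjusted). The median change of the 12 was 0.03. Osmr, the oncostatin M receptor subunit, read 6.07, 4.92 and 5.36 in dark adapted and 8.80, 8.61 and 8.07 in light damaged retinas, an 8.24-fold rise. Il6st, which encodes gp130, the receptor subunit bound by SOCS3, rose by 1.15 ± 0.13 (SE; limma adjusted p = 0.00447), from 8.33, 8.29 and 8.04 to 9.29, 9.38 and 9.44. Lif, the ligand leukaemia inhibitory factor, rose by 1.06 ± 0.19 (SE; limma adjusted p = 0.03), and the fourth was the ligand gene Clcf1 (0.82, limma adjusted p = 0.0494, chosen for mention after its values were seen). Lif lost the call without dark adapted replicate 1 (limma adjusted p = 0.0585) or 3 (0.0796) or light damaged replicate 2 (0.133) or 3 (0.162). It also lost it with arrays centred on reference genes (change 0.64, limma adjusted p = 0.0939) and with the mean of its probe sets (0.64, adjusted p = 0.12), its second probe set giving 0.22. Clcf1 lost it without any 1 of the 6 arrays (limma adjusted p from 0.0606 to 0.218). The list's count was 2 without dark adapted replicate 1 or 3 or light damaged replicate 2 or 3, and 2 with reference centring. The third Osmr probe set, a dim one, gave -0.12.

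Of 4 JAK genes only Jak3, the kinase of common gamma chain receptors, rose (1.02 ± 0.14, SE; limma adjusted p = 0.0108), and lost the call without light damaged replicate 1 (adjusted p = 0.0514) or 3 (0.0591) and with arrays centred on reference genes (change 0.61, adjusted p = 0.0747). Of 6 STAT genes analysed here 2 rose. For both lists the share of all genes that rose was 1.74%. Stat3 read 9.18, 8.43 and 8.72 against 10.75, 10.30 and 10.58, a 3.41-fold rise, although 1 of its other probe sets, 1424272_at, gave -0.04. Stat2, which acts in type I interferon signalling, rose 3.00-fold. Both STAT genes passed the test under each of the 14 alternative settings. Of the rest, Stat4, Stat5a, Stat5b and Stat6 had changes between -0.29 and 0.17. Among 21 interferon, growth hormone and other cytokine receptors 0 passed, with 4 higher and 0 lower at an unadjusted p under 0.05 (all genes 8.58% and 2.42%). With the replicate block 3 of the 21 were higher (all genes 6.73%). The smallest p there was that of Ifnar2, a type I interferon receptor subunit (0.72 ± 0.16, SE; limma adjusted p = 0.0785). Other Ifnar2 probe sets gave -0.03 and 0.63, and the mean of its probe sets gave 0.44 (limma adjusted p = 0.292).

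Other brakes on the pathway were set beside the SOCS genes. Of 15 such genes 2 rose, 0 fell and 13 did not pass, where 1.74% of all genes rose and 0.269% fell. The changes of the 15 had a median of 0.25. Usp18, which removes the ubiquitin-like ISG15 and blocks the type I interferon receptor, went from 5.25, 5.47 and 5.54 to 7.20, 7.49 and 7.02, a 3.52-fold rise. Ptpn1, a tyrosine phosphatase of JAK2 and TYK2, rose 1.86-fold (limma adjusted p = 0.0124), and lost the call without dark adapted replicate 2 (adjusted p = 0.0651), light damaged replicate 2 (0.0679) or light damaged replicate 3 (0.0763), and with arrays centred on reference genes (change 0.48, adjusted p = 0.0844). The second Ptpn1 probe set gave 0.53 (limma adjusted p = 0.232 over probe sets). The PIAS genes, which encode nuclear STAT inhibitors, did not pass. With arrays centred on reference genes 1 of the 15 rose and 2 fell, beside 134 and 555 of all 18193 genes.

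Partners of the SOCS box showed no calls. Of 8 subunits and cofactors of the SOCS box ubiquitin ligase 0 passed, with 1 at an unadjusted p under 0.05; this was Elob, elongin B (0.42 ± 0.13, SE; limma adjusted p = 0.219, and 0.0435 with the replicate block). Of 27 other genes whose products carry a SOCS box 0 passed, with 2 higher at an unadjusted p under 0.05, where 8.58% of all genes were, and 2 with the replicate block, where 6.73% of all genes were. Spsb2 had the smallest p in this list (0.98 ± 0.23, SE; limma adjusted p = 0.091, and 0.00108 with the block). The median change of these 27 genes was 0.00052, against 0.26 over the 8 SOCS genes. With genes above the median level only, 11 of the 27 remained, with a median change of 0.14. The SOCS genes left by that filter were Socs2 (0.12), Socs3 (2.35), Socs5 (0.43), Socs7 (-0.15) and Cish (0.53). Of 18 receptors and adaptors that SOCS proteins bind, Met, the hepatocyte growth factor receptor, rose 4.92-fold and 17 did not pass. Over all genes 1.74% rose.

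Known target genes of the STATs were read as the pathway's output. These lists were chosen with results of these data known and give no independent evidence of a direction. Of 20 genes known to be induced by STAT3, 10 rose and 0 fell, against 1.74% and 0.269% of all genes. The other 10 did not pass, and the list's median was 1.28. Its largest changes were those of Cebpd, Lcn2 and Osmr (4.27, 4.16 and 3.04), and Lcn2 is also a reactive glia marker. The second Cebpd probe set gave 0.58 (limma adjusted p = 0.442 over probe sets). With the mean of a gene's probe sets Cebpd was at 2.42 and Osmr at 1.59, against 2.86 for Socs3. Of 10 genes known to be induced by STAT5, 1 rose, Ccnd1 (cyclin D1, 2.81-fold), which is also in the STAT3 list, and 9 did not pass; the median was 0.13. With the replicate block the calls were 13 in the STAT3 list and 3 in the STAT5 list, and Cish, itself a STAT5 target, was called too. Over all genes 6.73% were called higher with the block. The difference between the lists was not tested. Over all 136 pathway genes 19 rose and 0 fell, against 1.74% and 0.269% of all genes, and without light damaged replicate 3 the count was 12. With the replicate block it was 32, against 6.73% of all genes.

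**Figure D4:**
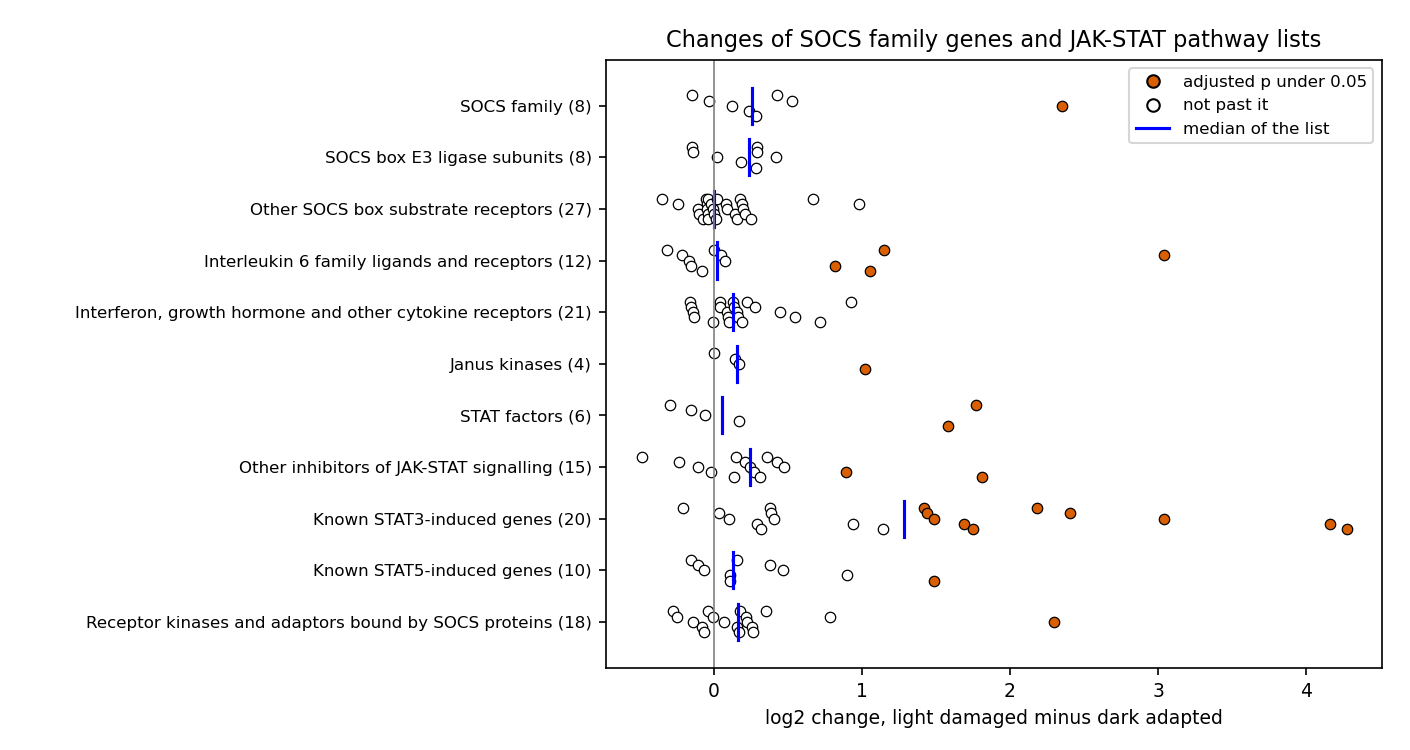
Log2 change (horizontal axis, light damaged minus dark adapted) of the SOCS family genes and of each gene in 10 pathway lists, with the number analysed in brackets; filled points passed an adjusted p of 0.05 (limma) and the line is the list's median. The SOCS family has 1 filled point, at 2.35, while the STAT3 target list has 10.

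Among the 2345 genes with a range of at least 1 log2 unit, predicted and clone-based names were skipped. The remaining genes whose pattern over the 6 arrays was most like that of Socs3 were sought. They were Tspo (Pearson r = 0.996), a mitochondrial membrane protein of activated glia, Tmem176b (0.996), the matrix protein gene Mgp (0.994), the growth cone protein gene Gap43 (0.993) and the tumour necrosis factor receptor gene Tnfrsf1a (0.993). Their Spearman correlations with Socs3 ran from 0.829 to 0.943. Their changes lay between 1.03 and 1.30, smaller than that of Socs3 (2.35). With 6 arrays in separated groups such a correlation is a description: the points share arrays and fall into 2 groups. Among the relatives the correlation with Socs3 was 0.86 for Cish, 0.78 for Socs5, 0.70 for Socs6, 0.57 for Socs1, 0.41 for Socs2, -0.05 for Socs4 and -0.42 for Socs7.

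**Figure D5:**
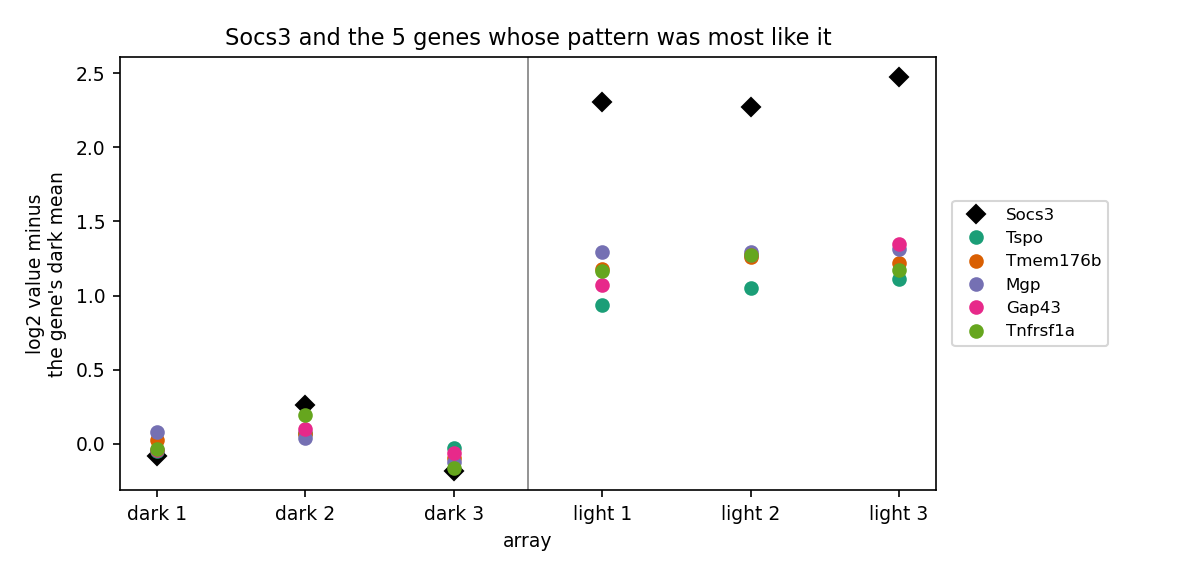
Log2 value of Socs3 and of the 5 genes most like it on each array (horizontal axis), less the gene's mean over the dark adapted arrays. Socs3 and the 5 genes lie near 0 on the dark adapted arrays and Socs3 lies highest on each light damaged array.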

How the data were processed

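Expression was read on 6 arrays of whole retina RNA. The values are log2 expression values as deposited, made by the authors with RMA (background correction, quantile normalization and summary per probe set) per the submitters' processing notes; the version and genome build are not given in the sources used here. Control probe sets (64) were left out of tests. Of 45037 probe sets, 34945 carry 1 gene in GEO's platform annotation, 932 several and 9160 none. Light damaged was tested against dark adapted with limma 3.58.1 in R 4.3.3 (lmFit and eBayes), over 18193 genes and over all probe sets, with Benjamini-Hochberg adjustment at 0.05. Exact permutation tests set Socs3 against each relative. Arrays of the same number correlated in their deviations from the group means (0.731, 0.618 and 0.432, above the limit of 0.1; other pairs -0.48 to 0.00902), so pairing by number was inferred from the data, and a fit with the replicate number as a block is given beside. The fits were tested on simulated data. The members and lists were chosen with earlier results of these data known. Named genes are the members and up to 3 called genes with the largest changes per pathway list (or the gene with the smallest p). The 2 brightest of each cell type list are named too. So are the 5 genes most correlated with Socs3, leaving out predicted and clone-based names. Cell type markers that were called or dim, and Clcf1, were named after their values were seen. Alternatives changed the block, scaling, low-value filter, variance prior, probe set choice and arrays. With 3 arrays a group the precision is limited. Some of the pathway's genes are not reported here.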

Additional observations from a re-analysis of the deposited data

How the results depend on the processing

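The Socs3 rise passed the test under all 14 alternatives (change 1.94 to 2.86), and its difference from each relative stayed positive in 56 values from 8 alternatives (1.72 to 2.92). A further 3 alternatives (replicate block, reference centring, no _x_at or _s_at probe sets) leave that difference as it is and add nothing. With the replicate number as a block, calls over all genes went from 365 to 1613, over the SOCS genes from 1 to 2 (Cish added), over the SOCS probe sets from 3 to 4 and over the pathway genes from 19 to 32. Centring arrays on reference genes gave 689 calls, of which 134 were higher and 555 lower, against 316 and 49 as deposited. Quantile normalization again gave 325 and 162. Leaving out 1 array gave 151 to 417 calls over all genes and 12 to 20 over the pathway genes. Among the SOCS genes and probe sets, the values that turned sign belonged to changes that did not pass the test. Reference centring drops every change by the same amount, so over all genes the positive changes went from 10378 to 1409 and over the pathway genes from 94 to 33. In the family it turned Socs1 (-0.13, probe set 1450446_a_at), Socs2 (-0.29, 1442586_at) and Socs6 (-0.18, 1450129_a_at), and the further probe sets 1421274_at (-0.35), 1423350_at (-0.10), 1438470_at (-0.0095), 1438492_at (-0.38), 1441476_at (-0.27), 1446085_at (-0.19) and 1455402_at (-0.38). Under quantile normalization again they were 1435492_at (0.025) and 1455402_at (-0.12). With 1 array left out, Socs4 (1455142_at) ranged from -0.26 to 0.17, 1420766_at from -0.13 to 0.088, 1421274_at from -0.013 to 0.11, 1435492_at from -0.23 to 0.28, 1438492_at from -0.0070 to 0.11 and 1455402_at from -0.28 to 0.33. The cause of the last 2 groups was not tested. Dim probe sets limit what can be seen: 4 of the 24 lay under the lower quartile on all arrays.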
